A study of Saccharomyces cerevisiae with 31 samples.

Results

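Of the 31 arrays of a 2-h yeast metabolic oscillation, 10 cover the stretch that leads up to the burst of growth-related transcripts. They were grouped by the phase angle in their labels, and the windows and gene lists were chosen with earlier results of these data known. The earlier window holds 5 arrays at 243.30, 255.17, 267.03, 278.90 and 290.77 degrees, sampled from 13.87 to 14.13 h. The later window holds 5 arrays at 302.64, 314.51, 326.37, 338.24 and 350.11 degrees, sampled from 14.20 to 14.47 h. All arrays carry total RNA of Saccharomyces cerevisiae strain CEN.PK122 from aerobic continuous culture without any added treatment, in which the cells oscillate by themselves between respiratory and reductive states. Each time point was measured on 1 Affymetrix Yeast 2.0 array, with no control samples. The labels describe 1 time series, so the 5 arrays of a window are neighbours in time and not separate cultures, and p-values measure only the spread between them. Arrays outside the windows served for reference. They were the 5 arrays at 183.96 to 231.43 degrees just before the earlier window, the 4 arrays at 5.93 to 41.54 degrees from the start of the series, called burst arrays here, and the single array at 362.01 degrees just after the later window.

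In continuous culture, budding yeast can take turns between a phase of high oxygen uptake, in which genes for ribosome assembly, translation and amino acid synthesis are transcribed in a burst, and longer phases in which genes for mitochondria, storage carbohydrates, stress defence and self-digestion prevail. Ribosome assembly draws on RNA polymerase I and III, small nucleolar RNPs, helicases and a large set of assembly factors, and much of it is set by nutrient signalling through the Ras and protein kinase A pathway and through TOR. The question for the windows was which transcripts moved first, before that burst, and which moved with them in the opposite direction.

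Levels below are log2 of the normalized signal intensity, and a difference is the mean of the later window minus the mean of the earlier one, so that 1 stands for 2-fold. Quantile normalization makes each difference relative to the other probe sets on the array. Of 5422 probe sets tested, 1713 (31.6%) passed at an adjusted p of 0.05 in limma, 823 higher (15.2%) and 890 lower (16.4%) in the later window. Most changes were small. The rises had a median of 0.35 (1.28-fold) and the falls a median size of 0.25 (1.19-fold), and the smallest adjusted p was 0.0186. Counting changes of at least 2-fold, 3 probe sets rose (0.0553%) and 2 fell (0.0369%). The median over all probe sets was -0.03, and 2407 of 5422 differences were positive. Calls rested on single arrays: without the array at 243.30 degrees, or without that at 338.24 degrees, limma called 0 probe sets at the threshold, with smallest adjusted p of 0.0506 and 0.0502 and with 2117 and 2099 probe sets at an unadjusted p under 0.05 (2479 with all arrays). Without the array at 255.17, 267.03, 278.90 or 326.37 degrees the count was 767, 903, 1091 or 1136. This limit applies to every count of members that rose or fell given here.

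Scale moved the balance of rises and falls. On the deposited scale, without normalization between arrays, 335 probe sets rose and 19 fell, with a median of 0.12 over all probe sets. Scaled by the hybridization spikes, 659 rose and 346 fell, with a median of 0.01. Falls on the normalized scale are therefore relative to the other transcripts, and their number depended on the scale. List medians stayed negative under every alternative for storage carbohydrates (highest -0.23), daughter-cell separation (-0.13), chaperones (-0.06), autophagy (-0.04) and stress regulators (-0.03). Those of the proteasome and mitochondrial lists turned positive on the deposited scale. The median intensity of the arrays ran from 1401 to 1936 in the earlier window and from 1283 to 2142 in the later one. The log2 ratio of the 3′ to the 5′ probe set of ACT1, a sign of RNA quality and of labelling, ran from 0.30 to 0.45 in the earlier window and from 0.40 to 0.59 in the later one, and its part in the results was not tested. Numbers in the array descriptions, whose meaning the labels do not give, split the arrays into a first set of lower and a second set of higher numbers, which differed in their poly-A spikes against the hybridization spikes (-4.37 to -3.68 against -5.41 to -4.78 on the log2 scale). The earlier window held 2 arrays of the first set and 3 of the second, and the later window 3 and 2. With the set as a term 1561 probe sets passed, 754 higher and 807 lower. Within the first set 1 probe set passed (1263 at an unadjusted p under 0.05) and within the second set 0 passed in limma (1160 at an unadjusted p under 0.05). Differences within both sets are given for the leading genes and for the lists with the most calls. ACT1 (difference -0.01), TDH3 (0.04) and PMA1 (0.07), often used as references, were not called, with adjusted p of 0.764, 0.657 and 0.137 in limma. Probe sets outside S. cerevisiae, which the array also carries, had medians of 4.9 to 5.4 in the earlier and 4.9 to 6.3 in the later window on the intensity scale.

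AAH1, which encodes the adenine deaminase that turns adenine into hypoxanthine, had the largest rise. Its level was 9.75, 10.03, 10.21, 10.25 and 10.53 in the earlier window and 10.70, 11.04, 11.13, 11.60 and 12.22 in the later one. Every later array lay above every earlier one, and the level grew from array to array within both windows. The difference was 1.18 ± 0.26 (SE, n = 5 in each window; 2.27-fold), with an adjusted p of 0.0186 in limma and values of 1.00 and 1.47 within the sets. DBP2, a DEAD-box RNA helicase of ribosome assembly and mRNA decay, went from 9.33, 9.72, 9.71, 9.92 and 10.11 to 10.25, 10.50, 10.79, 11.19 and 11.56. Its windows did not overlap either, and the difference was 1.10 ± 0.24 (2.14-fold; adjusted p 0.0186 in limma), with 0.92 and 1.31 within the sets. The next array, at 362.01 degrees, read 12.82 for AAH1 and 12.22 for DBP2, and the burst arrays averaged 13.34 ± 0.23 and 12.81 ± 0.25 (SD, n = 4). Both genes thus stood in the later window between their levels in the earlier window and in the burst. The third probe set past 2-fold was that of YNL162W-A (1.11), named after its values were seen, whose windows overlapped.

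Of the other 10 leading rises with no overlap between windows, 5 are of genes with known roles in ribosome assembly. MAK16, a factor of the large subunit, read 8.18, 8.57, 8.38, 8.50 and 8.47 and then 8.85, 8.83, 9.43, 9.66 and 10.21. It did not climb within the earlier window after its second array and climbed through most of the later one. DRS1, a helicase of the large subunit, had a like course, with 9.20, 9.37, 9.28, 9.12 and 9.31 followed by 9.61, 9.69, 10.15, 10.37 and 11.01. PXR1, an rRNA and snoRNA processing factor, rose by 0.97, RIX1, of the complex that processes the spacer of the large-subunit rRNA, by 0.92, and UTP5, of the small-subunit processome, by 0.91. GIC2, an effector of Cdc42 in bud emergence, rose by 0.96, from 9.22, 9.46, 9.66, 9.83 and 9.97 to 10.02, 10.38, 10.53, 10.85 and 11.12. The permease genes DAL4 (allantoin; 0.92) and DAL5 (allantoate; 0.91) belong to the use of poor nitrogen sources. DAL5 read 10.76, 11.01, 11.21, 11.31 and 11.45 before and 11.76, 11.78, 12.05, 12.26 and 12.43 after, a steady gain across all 10 arrays. YOR338W (0.93) and YCR087C-A (0.90) are given by name only. In limma, adjusted p for these rises ran from 0.0186 to 0.0203. The 12 largest rises without overlap between windows lay between 0.75 and 1.00 within the first set and between 0.95 and 1.47 within the second.

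**Figure D1:**
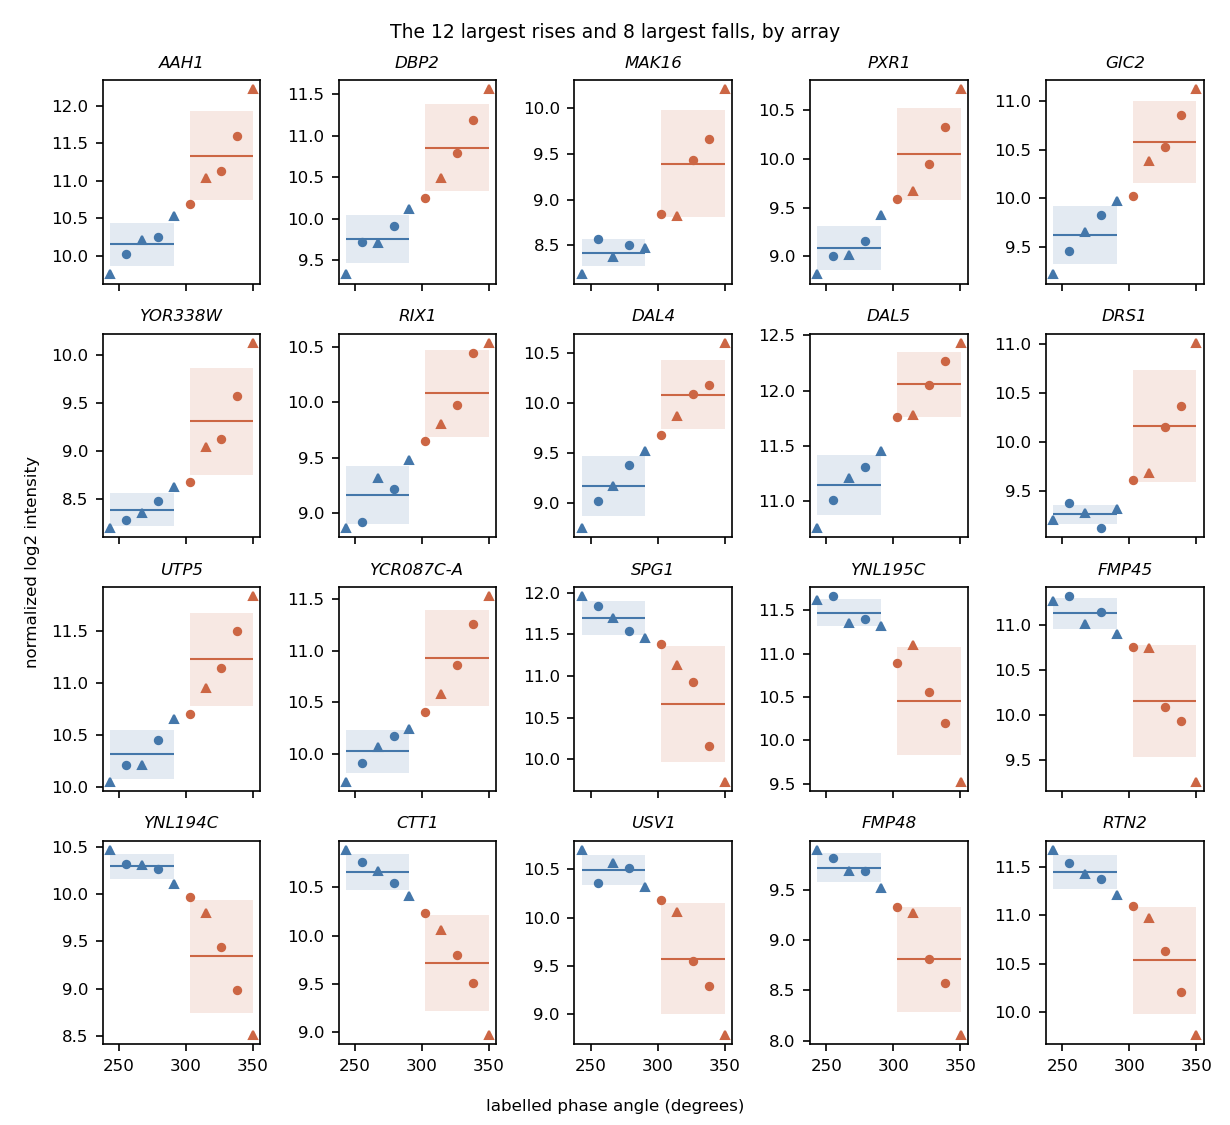
Normalized log2 intensity (vertical axes, not starting at 0) against labelled phase angle in degrees. Shown are the 12 largest rises and 8 largest falls that passed with windows that do not overlap. Points are single arrays, blue in the earlier and red in the later window, circles and triangles mark the 2 sets of array numbers, and lines and bands give the mean and SD of 5 arrays. For AAH1 the points climb from 9.75 to 12.22, and for SPG1 they drop from 11.95 to 9.73.

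Factors of the small and large ribosomal subunits were the broadest group to rise. Of 55 factors of the 40S subunit 53 rose and 0 fell, with a median difference of 0.64, and of 56 factors of the 60S subunit 54 rose and 0 fell, with a median of 0.67. All 19 helicases of ribosome assembly rose, with a median of 0.71 and a range from 0.26 to 1.10. The share over all probe sets was 15.2%. Their medians within the first and second set of array numbers were 0.57 and 0.72 (40S), 0.58 and 0.74 (60S) and 0.61 and 0.84 (helicases). On the deposited scale 46, 51 and 17 of them rose, beside 335 of all 5422 probe sets. The mean of the 60S factors, centred on the 31 arrays, was -0.30, -0.17, -0.10, -0.05 and 0.06 in the earlier window and 0.19, 0.27, 0.50, 0.69 and 0.98 in the later one, so that the windows did not overlap. LTV1, which accompanies the small subunit out of the nucleus, had the largest difference among the 40S factors (0.92), and RSA4, an assembly chaperone of the large subunit, the largest among the 60S factors (0.98). In both the last array of the earlier window lay above the first of the later one, at 9.60 against 9.59 for LTV1 and at 10.15 against 10.05 for RSA4.

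Small nucleolar RNPs guide and carry out modification and cleavage of rRNA. Of 16 of their protein genes 13 rose, with a median of 0.49 (0.43 and 0.58 within the sets). Over all probe sets 15.2% rose and 16.4% fell. NSR1, the yeast nucleolin, went from 11.14, 11.29, 11.47, 11.63 and 11.86 to 11.84, 12.17, 12.31, 12.53 and 12.87. NOP56, a core protein of the box C/D particles, rose by 0.67, from between 10.55 and 10.86 to between 11.10 and 11.83. Of 36 genes for subunits and factors of RNA polymerase I and III, 21 rose and 4 fell, with a median of 0.35 (0.27 and 0.41 within the sets). RPA49, a polymerase I subunit, rose by 0.85, and RRN11, of the polymerase I core factor, by 0.74. RRN11 was flat in the earlier window (8.03 to 8.28) and reached 9.69 in the last array of the later window. Of 17 genes of the exosome and of nuclear RNA decay 10 rose (median 0.22, and 0.21 and 0.28 within the sets), among them AIR1 of the polyadenylation complex that feeds the exosome (0.86) and RRP6, the nuclear exosome nuclease (0.75). RRP6 was uneven, with 9.49 and 9.73 in the first 2 arrays, 10.45, 10.37 and 10.40 next, and 10.98, 10.52, 10.89, 10.65 and 11.13 in the later window.

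Genes for ribosomal proteins themselves moved much less than those for the factors that assemble them. Of 127 measured cytosolic ribosomal protein genes 45 rose and 0 fell, beside 15.2% that rose over all probe sets. The median difference was 0.09 (0.10 and 0.11 within the sets). On the deposited scale 2 rose in limma, beside 335 of all 5422 probe sets, although the list median there was 0.20. The median over all probe sets on that scale was 0.12. The list mean was -0.04, -0.05, -0.04, -0.04 and -0.02 in the earlier window and 0.02, 0.03, 0.10, 0.09 and 0.16 in the later one. That mean changed little through the earlier window, whereas that of the 60S factors climbed from -0.30 to 0.06. Over the whole series the ribosomal protein mean also spanned less, from -0.31 to 0.32, beside -1.38 to 1.96 for the 60S factors. The ribosomal protein mean had already risen before the window, from -0.15 at 183.96 degrees to -0.07 at 231.43 degrees. Whether these lists began to rise at different times was not tested. RPL22B had the largest rise (0.55), and RPL13A rose by 0.49, from 12.34, 12.46, 12.55, 12.62 and 12.64 to 12.78, 12.90, 12.93, 13.13 and 13.32. Many of these genes come in near-identical pairs, which the probe sets may not tell apart. The lowest difference of the list, -0.41 for RPL41A (named after its values were seen), did not pass (adjusted p 0.287 in limma), and its levels scattered from 9.38 to 10.19 and from 8.47 to 10.32.

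Other parts of the translation machinery rose in moderate numbers, above the share of 15.2% over all probe sets. Of 38 translation factors 18 rose and 1 fell (median 0.17, and 0.13 and 0.21 within the sets). GCN3, the alpha subunit of the exchange factor eIF2B, rose by 0.40, while DBP1, a helicase related to the initiation helicase Ded1, fell by 0.47. Of 20 cytosolic tRNA synthetases 12 rose and 0 fell (median 0.20, and 0.18 and 0.23 within the sets). Among the members that passed, FRS2 for phenylalanine (0.36) and MES1 for methionine (0.36) had the largest differences. Of 31 enzymes of tRNA modification 23 rose and 0 fell, with a median of 0.37 (0.31 and 0.43 within the sets). TRM11, part of a tRNA guanosine methyltransferase, rose by 0.88 and DUS3, a dihydrouridine synthase, by 0.80. On the deposited scale 14 of the 31 tRNA modification genes rose, and limma called 0 of the tRNA synthetases and translation factors. Of all 5422 probe sets 335 rose on that scale. The medians of the synthetases and translation factors on that scale were 0.30 and 0.29, beside 0.12 over all probe sets.

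**Figure D2:**
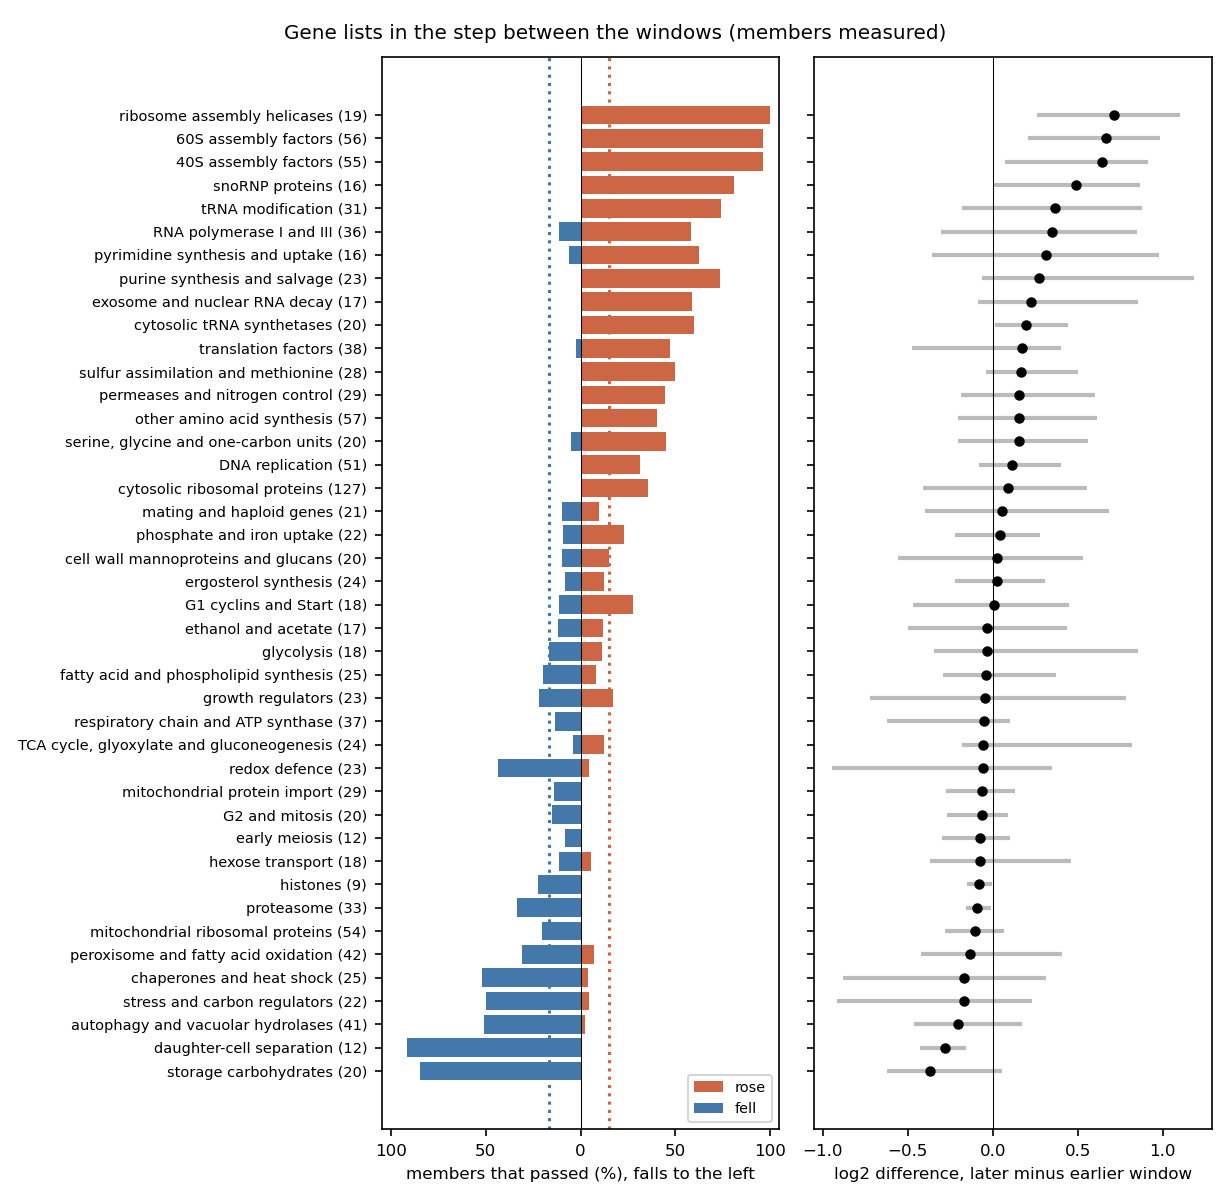
Left, the percentage of measured members (numbers in parentheses) of each gene list that rose (red, to the right) or fell (blue, to the left) between the windows, with dotted lines at the shares over all probe sets, 15.2% and 16.4%. Right, the median log2 difference of each list (points) with the range of its members (bars). The lists of ribosome assembly stand at one end, with 19 of 19 helicases higher, and storage carbohydrates at the other, with 17 of 20 lower.

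Building blocks of nucleic acids rose with the ribosome, and their counts stand beside rises of 15.2% over all probe sets. Of 23 genes of purine synthesis and salvage 17 rose and 0 fell, with a median of 0.27 (0.24 and 0.31 within the sets). Beside AAH1, IMD4, an IMP dehydrogenase of guanine nucleotide synthesis, rose by 0.78, from 8.42, 8.50, 8.71, 8.72 and 8.89 to 8.92, 9.16, 9.31, 9.68 and 10.07. Among 16 genes of pyrimidine synthesis and uptake 10 rose and 1 fell (median 0.31, and 0.26 and 0.37 within the sets). URA7, the CTP synthase, rose by 0.98, with 10.21, 10.24, 10.45, 10.70 and 11.01 before and 10.96, 11.29, 11.39, 11.79 and 12.08 after. The windows of URA7 overlapped in the arrays next to their border. FUR4, the uracil permease, rose by 0.76 and did not overlap.

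Amino acid genes rose in smaller steps, with counts to be read beside the 15.2% that rose over all probe sets. Of 20 genes of serine, glycine and one-carbon units 9 rose and 1 fell (median 0.15, and 0.12 and 0.18 within the sets), with MIS1, a mitochondrial C1-tetrahydrofolate synthase, at 0.56 and SER2, the phosphoserine phosphatase, at 0.44. The one that fell was SER3, the first enzyme of serine synthesis from 3-phosphoglycerate (-0.20, named after its values were seen). Its mean was 11.16 in the burst arrays. Of 28 genes of sulfur assimilation and methionine 14 rose and 0 fell (median 0.16, and 0.15 and 0.19 within the sets), with MET8 (0.50) and MET1 (0.43), both of siroheme synthesis, on top. Of 57 other amino acid synthesis genes 23 rose and 0 fell (median 0.15, and 0.13 and 0.18 within the sets). LEU9, an isopropylmalate synthase, rose by 0.62 and LYS1, the saccharopine dehydrogenase, by 0.42. Among 29 permeases and regulators of nitrogen use 13 rose and 0 fell (median 0.15, and 0.16 and 0.24 within the sets). GNP1, the glutamine permease, rose by 0.60, and the ammonium permease MEP3 (named after its values were seen) by 0.54, with 10.61, 10.88, 10.94, 11.02 and 11.12 followed by 11.23, 11.31, 11.45, 11.54 and 11.73. MUP1, the methionine permease, rose by 0.59, with an adjusted p of 0.0400 in limma and of 0.0539 with the array number set as a term. Its level stayed between 10.50 and 10.76 in the first 7 of the 10 arrays and was 11.32, 11.49 and 11.83 in the last 3.

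Lipid genes showed no common movement, with called shares of 28% (fatty acids and phospholipids) and 20.8% (ergosterol), beside 31.6% over all probe sets. Of 25 genes of fatty acid and phospholipid synthesis 2 rose and 5 fell (median -0.04, and 0.07 on the deposited scale), and of 24 genes of ergosterol synthesis 3 rose and 2 fell (median 0.02). The 2 rises in the former were ELO3 (0.37) and ELO2 (0.32), which elongate fatty acids to the very long chains of sphingolipids. ELO3 read 11.79, 11.88, 11.88, 11.90 and 11.91 before and 12.04, 12.07, 12.24, 12.36 and 12.52 after. ERG4, which carries out the last step to ergosterol, rose by 0.31, and HMG2, an HMG-CoA reductase, fell by 0.22.

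Of 23 measured growth regulators 9 passed, 4 higher and 5 lower, with a median over the list of -0.04 (0.08 on the deposited scale). That is 39.1% of the list, beside 31.6% over all probe sets, so the list as a whole lay near the background, and its members are given one by one. TOD6, which binds promoters of ribosome assembly genes as a repressor, rose by 0.79. It read 8.90, 9.03, 9.16, 9.33 and 9.44 in the earlier window and 9.43, 9.68, 9.81, 10.25 and 10.64 in the later one, and the windows overlapped at the border. DOT6, its paralog with the same binding motif, had means of 11.43 in both windows and a difference of 0.00 (adjusted p 0.98 in limma). IFH1, the coactivator of ribosomal protein genes, rose by 0.45, from 9.70, 9.74, 9.82, 9.75 and 9.86 to 9.95, 9.97, 10.24, 10.36 and 10.59. CRF1, a corepressor that competes with it, fell by 0.72, from 9.45, 9.41, 9.36, 9.40 and 9.14 to 9.15, 9.00, 8.59, 8.45 and 7.96. FHL1, the DNA-bound partner of both (difference 0.03, adjusted p 0.745 in limma), and SFP1, an activator of ribosome assembly genes (-0.04, adjusted p 0.55), were not called.

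Within the Ras and protein kinase A pathway, paralogs moved in opposite directions. RAS1 rose by 0.53 and RAS2 fell by 0.36. RAS1 went from 8.95, 9.05, 9.31, 9.21 and 9.47 to 9.56, 9.46, 9.68, 9.77 and 10.18, and RAS2 from 12.39, 12.29, 12.25, 12.21 and 12.10 to 12.10, 12.08, 11.90, 11.80 and 11.59. In both genes the windows overlapped narrowly. Of the catalytic subunits TPK2 fell by 0.43, from a mean of 11.64 to 11.21, and TPK3 rose by 0.23, from 9.48 to 9.70. CYR1, the adenylate cyclase, fell by 0.33, and HMO1, an HMG-box protein of rDNA and ribosomal protein promoters, fell by 0.11. HMO1 had a difference of 0.0029 on the deposited scale, and the calls of TPK3 and HMO1 were lost with the array number set as a term (adjusted p 0.0506 and 0.0527 in limma).

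**Figure D3:**
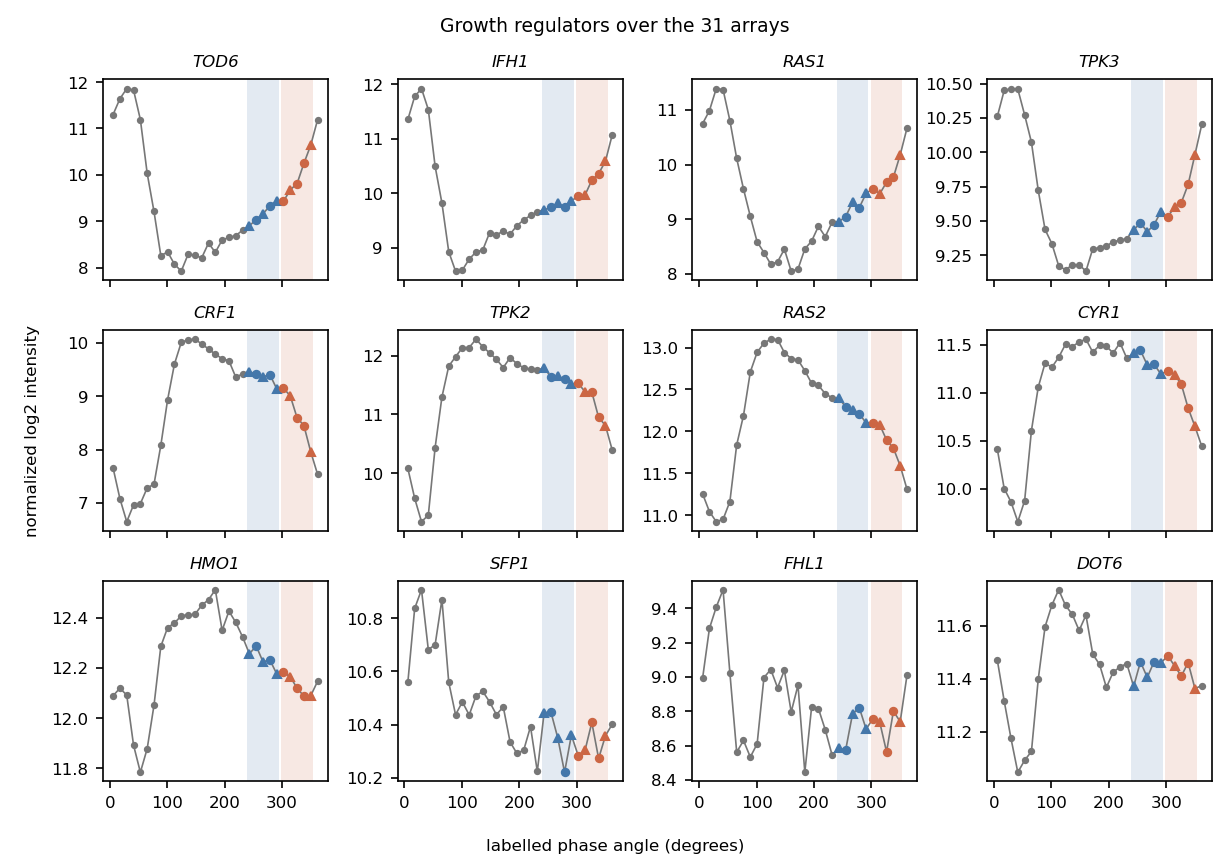
Normalized log2 intensity (vertical axes, not starting at 0) of 12 growth regulators against labelled phase angle in degrees in the 31 arrays. The earlier window is shaded blue and the later one red, and circles and triangles mark the 2 sets of array numbers inside them. TOD6 climbs from 8.90 to 10.64 through the windows while CRF1 drops from 9.45 to 7.96, and the windows of SFP1, FHL1 and DOT6 overlap.

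Regulators of stress and of alternative carbon sources went mostly down. Of 22, 1 rose and 11 fell, with a median of -0.17 (-0.14 and -0.21 within the sets), beside falls of 16.4% over all probe sets. USV1, a zinc-finger regulator of growth on non-fermentable carbon, fell by 0.92, and XBP1, a repressor induced by stress and starvation, fell by 0.65, from between 11.03 and 11.21 to between 9.88 and 10.90. Among those named after their values were seen, GIS1 fell by 0.41, MSN4 by 0.30 and SIP4, an activator of gluconeogenic genes, by 0.31. The levels of SIP4 dropped between 290.77 and 302.64 degrees, from 10.75, 10.62, 10.73, 10.68 and 10.69 to 10.42, 10.44, 10.35, 10.34 and 10.37. The single rise in this list was ROX1, the repressor of hypoxic genes (0.23, named after its values were seen).

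The 8 largest falls with no overlap between windows were of genes with varied or unassigned roles. SPG1, required for survival in stationary phase, read 11.95, 11.84, 11.70, 11.54 and 11.46 in the earlier window and 11.39, 11.13, 10.92, 10.16 and 9.73 in the later one. It dropped with every array, and the difference was -1.03 ± 0.28 (SE, n = 5 in each window; 2.04-fold), with an adjusted p of 0.0257 in limma and values of -0.87 and -1.27 within the sets. YNL195C followed with -1.02 ± 0.25 (2.02-fold; adjusted p 0.0199 in limma), from between 11.32 and 11.66 to between 9.53 and 11.11. FMP45 fell by 0.98 and YNL194C by 0.95, both encoding membrane proteins of the Sur7 family. CTT1, the cytosolic catalase, went from 10.89, 10.76, 10.67, 10.54 and 10.41 to 10.23, 10.05, 9.80, 9.51 and 8.97, a difference of -0.94. FMP48, a putative mitochondrial protein kinase, and RTN2, a reticulon of the endoplasmic reticulum, each fell by 0.91. Within the first set of array numbers the 8 falls lay between -0.98 and -0.76 and within the second between -1.27 and -1.04. In all of them the windows did not overlap, and the later window spread over a wider range than the earlier one.

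Storage carbohydrates fell together. Of 20 genes of trehalose and glycogen metabolism 17 fell and 0 rose, with a median of -0.37 (-0.33 and -0.42 within the sets), beside 16.4% over all probe sets. TSL1, a regulatory subunit of trehalose synthase, read 12.88, 12.83, 12.80, 12.76 and 12.68 before and 12.55, 12.51, 12.20, 11.99 and 11.58 after. GSY1, a glycogen synthase, fell by 0.59, from between 10.46 and 10.70 to between 9.58 and 10.38. On the deposited scale, where the median of all probe sets was 0.12, the storage carbohydrates had a median of -0.23 and 0 members passed in limma. Of all 5422 probe sets only 19 fell on that scale. Without any 1 of the 10 arrays the list median lay between -0.41 and -0.29.

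Self-digestion, chaperones and defence also lost ground against the rest of the transcripts. The share of falls over all probe sets was 16.4%. Of 41 genes of autophagy and vacuolar hydrolases 21 fell and 1 rose (median -0.20, and -0.17 and -0.25 within the sets). ATG7, which activates the ubiquitin-like proteins of autophagy, was level in the earlier window at 10.37, 10.37, 10.33, 10.31 and 10.33 and then fell to 10.18, 10.20, 9.97, 9.69 and 9.39. ATG3, the conjugating enzyme that acts with it, fell by 0.46. Of 25 chaperones and heat shock genes 13 fell and 1 rose (median -0.17, and -0.12 and -0.23 within the sets). HSP30, a stress protein of the plasma membrane, fell by 0.88, from 12.00, 11.85, 11.69, 11.61 and 11.47 to 11.36, 11.28, 10.94, 10.55 and 10.08, and SSA4, an inducible Hsp70, by 0.54. Of 23 redox defence genes 10 fell and 1 rose (median -0.06, and 0.05 on the deposited scale), among them GPX1, a glutathione peroxidase (-0.58). Of 33 proteasome genes 11 fell and 0 rose, with a median of -0.09 that became 0.03 on the deposited scale. The largest of these falls were those of RPN11 (-0.16) and PRE1 (-0.15). The calls of GPX1 and RPN11 were lost with the array number set as a term (adjusted p 0.0503 and 0.0533 in limma). On the deposited scale 0 of the autophagy and 0 of the proteasome genes fell in limma, and 1 each of the chaperones and of the redox genes. Of all 5422 probe sets only 19 fell on that scale, so such low counts are also those of the background.

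**Figure D4:**
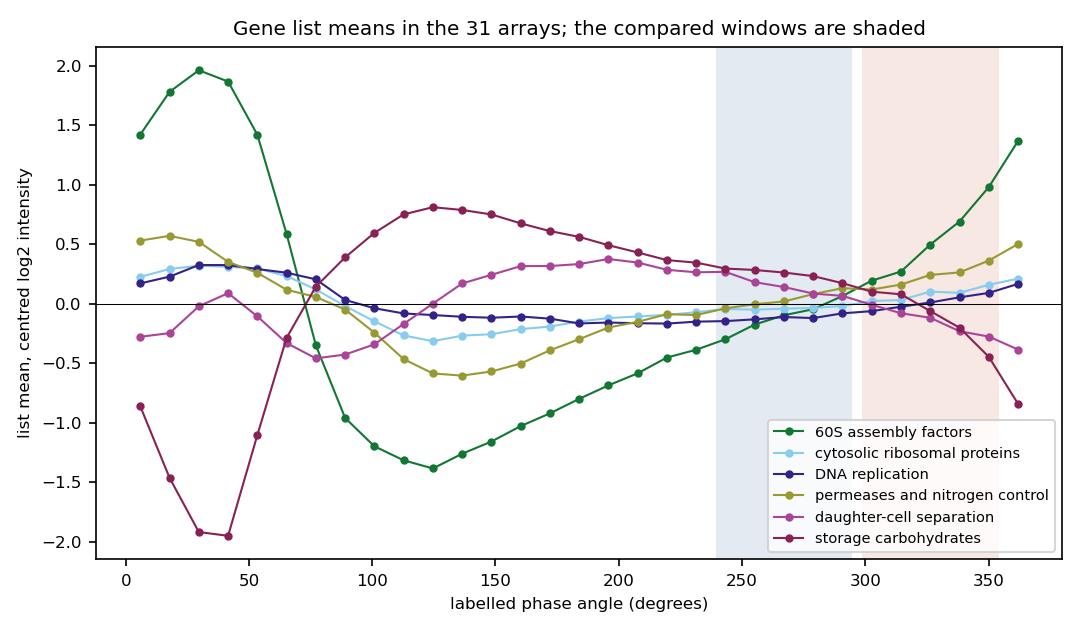
Mean of 6 gene lists, each member centred on its mean over the 31 arrays (vertical axis, log2 intensity), against labelled phase angle in degrees. Each point is 1 array, and the earlier and later windows are shaded blue and red. The 60S assembly factors climb from -0.30 to 0.98 through the windows, and the storage carbohydrates drop from 0.30 to -0.45.

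Most genes of central carbon metabolism were not called, nor were most of the probe sets tested. The called shares were 27.8% for glycolysis, 23.5% for ethanol and acetate and 16.7% for hexose transport, beside 31.6% over all probe sets. Of 18 glycolysis genes 2 rose and 3 fell (median -0.04, and 0.06 on the deposited scale). PFK27, which makes the glycolytic activator fructose 2,6-bisphosphate, was the exception in size and rose by 0.86, from 8.03, 8.15, 8.34, 8.33 and 8.45 to 8.67, 8.83, 9.10, 9.25 and 9.74. HXK2, the main hexokinase (named after its values were seen), rose by 0.22, and PYK2, the minor pyruvate kinase, fell by 0.34. Of 17 genes of ethanol and acetate metabolism 2 rose and 2 fell (median -0.03, and 0.07 on the deposited scale), with PDC6, a minor pyruvate decarboxylase, at 0.44 and ALD3, a stress-induced aldehyde dehydrogenase, at -0.49. Of 18 hexose transporters and sensors 1 rose and 2 fell (median -0.08, and 0.03 on the deposited scale). HXT4 rose by 0.46, with 7.59 to 7.67 before and 7.71, 8.12, 7.98, 7.99 and 8.65 after, and HXT5 fell by 0.34.

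Few genes around the TCA cycle were called. Of 24 genes of the TCA cycle, the glyoxylate bypass and gluconeogenesis 3 rose and 1 fell, which is under the shares over all probe sets (15.2% and 16.4%), with a median of -0.06 (0.08 on the deposited scale). The 3 that rose, all of which encode enzymes that make or use glyoxylate, were DAL7 (0.82) and MLS1 (0.27, named after its values were seen), which encode malate synthases, and ICL1 (0.43), which encodes isocitrate lyase. ICL1 read 11.24, 11.20, 11.24, 11.35 and 11.41 before and 11.57, 11.66, 11.73, 11.79 and 11.85 after, with no overlap and an adjusted p of 0.0186 in limma. In the burst arrays its mean was 11.08 ± 0.73 (SD, n = 4), a difference of -0.64 that did not pass (adjusted p 0.0707 in limma), whereas on the deposited scale the difference was -0.84 with an adjusted p of 0.0395. DAL7 is also a gene of allantoin use, as are DAL4 and DAL5, and in the burst arrays it stood higher still, at 13.03 ± 0.27. CRC1, the mitochondrial acetylcarnitine carrier (named after its values were seen), rose by 0.33. Of 42 genes of peroxisomes and fatty acid oxidation 3 rose and 13 fell (median -0.13, and 0.03 on the deposited scale). That is fewer rises and more falls than the shares over all probe sets. PEX21, a receptor cofactor of peroxisomal import, rose by 0.41, and DCI1, related to the peroxisomal enoyl-CoA isomerase, fell by 0.42.

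Mitochondrial genes were mostly not called, and those called had fallen. Of 37 genes of the respiratory chain and ATP synthase 5 fell and 0 rose (median -0.05, and 0.06 on the deposited scale). CYC7, the minor form of cytochrome c, fell by 0.62, and NDE2, an external NADH dehydrogenase, by 0.38. Of 54 mitochondrial ribosomal proteins 11 fell and 0 rose (median -0.10, and 0.05 on the deposited scale), with MRPL6 at -0.22 and RSM24 at -0.21. Of 29 genes of mitochondrial protein import 4 fell and 0 rose (median -0.06, and 0.10 on the deposited scale), with TIM21 at -0.27 and PAM17 at -0.23. These shares of falls, 13.5% to 20.4%, lay near the 16.4% over all probe sets.

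Lists of cell division genes differed in their counts. In a bulk culture a changed share of cells in a stage and a changed level per cell cannot be told apart. Of 12 genes of daughter-cell separation, expressed as cells leave mitosis, 11 fell and 0 rose, with a median of -0.28 (-0.26 and -0.34 within the sets). SCW11, a cell wall glucanase, read 11.38, 11.31, 11.21, 11.14 and 11.10 before and 11.00, 10.88, 10.90, 10.73 and 10.76 after, a fall of 0.38. SUN4, a glucanase of septum separation (named after its values were seen), held 11.84, 11.88, 11.85, 11.82 and 11.82 and then 11.65, 11.58, 11.57, 11.58 and 11.53. PRY3, a cell wall protein, fell by 0.43. On the deposited scale 0 of the daughter-cell separation genes passed in limma, with a median of -0.13. Of all 5422 probe sets only 19 fell on that scale. Of 20 genes of G2 and mitosis 3 fell and 0 rose (median -0.06, and 0.10 on the deposited scale), a share near the 16.4% over all probe sets, among them HST3, a histone deacetylase (-0.27), and SWI5, the activator of genes at the end of mitosis (-0.24). Of 9 histone genes 2 fell (median -0.08, and 0.03 on the deposited scale), the linker histone HHO1 (-0.15) and the variant HTZ1 (-0.14).

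Among genes of the start of the cycle, calls were made in both directions. Of 51 DNA replication genes 16 rose and 0 fell, with a median of 0.11 (0.11 and 0.13 within the sets), beside 15.2% over all probe sets. POL12, the B subunit of DNA polymerase alpha, read 10.12, 10.25, 10.24, 10.09 and 10.45 before and 10.54, 10.67, 10.63, 10.60 and 10.72 after, and POL30, the sliding clamp, rose by 0.39. Of 18 G1 cyclins and Start genes 5 rose and 2 fell (median 0.01). The S-phase cyclin CLB6 rose by 0.45, and, named after their values were seen, PCL1 rose by 0.44, CLN2 by 0.36 and CLN3 by 0.20. The call of CLN3 was lost with the array number set as a term (adjusted p 0.0543 in limma). The falls were those of PCL9 (-0.47), a cyclin of the M/G1 border, and WHI5 (-0.30, named after its values were seen), the repressor that G1 cyclins inactivate. PCL9 read 9.86, 9.69, 9.57, 9.35 and 9.39 and then 9.24, 9.17, 9.11, 9.04 and 8.97. CLN2 read 9.37, 9.46, 9.40, 9.69 and 9.59 and then 9.65, 9.73, 9.85, 10.06 and 10.03.

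Called shares in the surface lists were 25% (cell wall) and 31.8% (phosphate and iron uptake), beside 31.6% over all probe sets. In the lists of other cell states they were 8.33% (early meiosis) and 19% (mating and haploid genes). Of 20 genes of cell wall mannoproteins and glucans 3 rose and 2 fell, with UTR2, a chitin-glucan linking enzyme, at 0.53 and CWP1, a mannoprotein, at -0.56. Of 22 genes of phosphate and iron uptake 5 rose and 2 fell, with the siderophore carrier SIT1 at 0.28 and the mannoprotein FIT1 at -0.22. Among lists that mark other states of the same cells, 1 of 12 early meiosis genes fell, IME2 (-0.30), and 0 rose. Of 21 mating and haploid genes 2 rose and 2 fell. MF(ALPHA)1, which encodes the alpha pheromone, rose by 0.68, from 10.05, 10.21, 10.30, 10.38 and 10.61 to 10.78, 10.91, 10.89, 11.09 and 11.30, and RME1, a repressor of meiosis, fell by 0.40. The pheromone receptor genes STE2 and STE3 and the a-factor gene MFA1 (named after their values were seen) lay between 7.92 and 8.81 in the 10 arrays and were not called (adjusted p from 0.32 to 0.816 in limma).

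**Figure D5:**
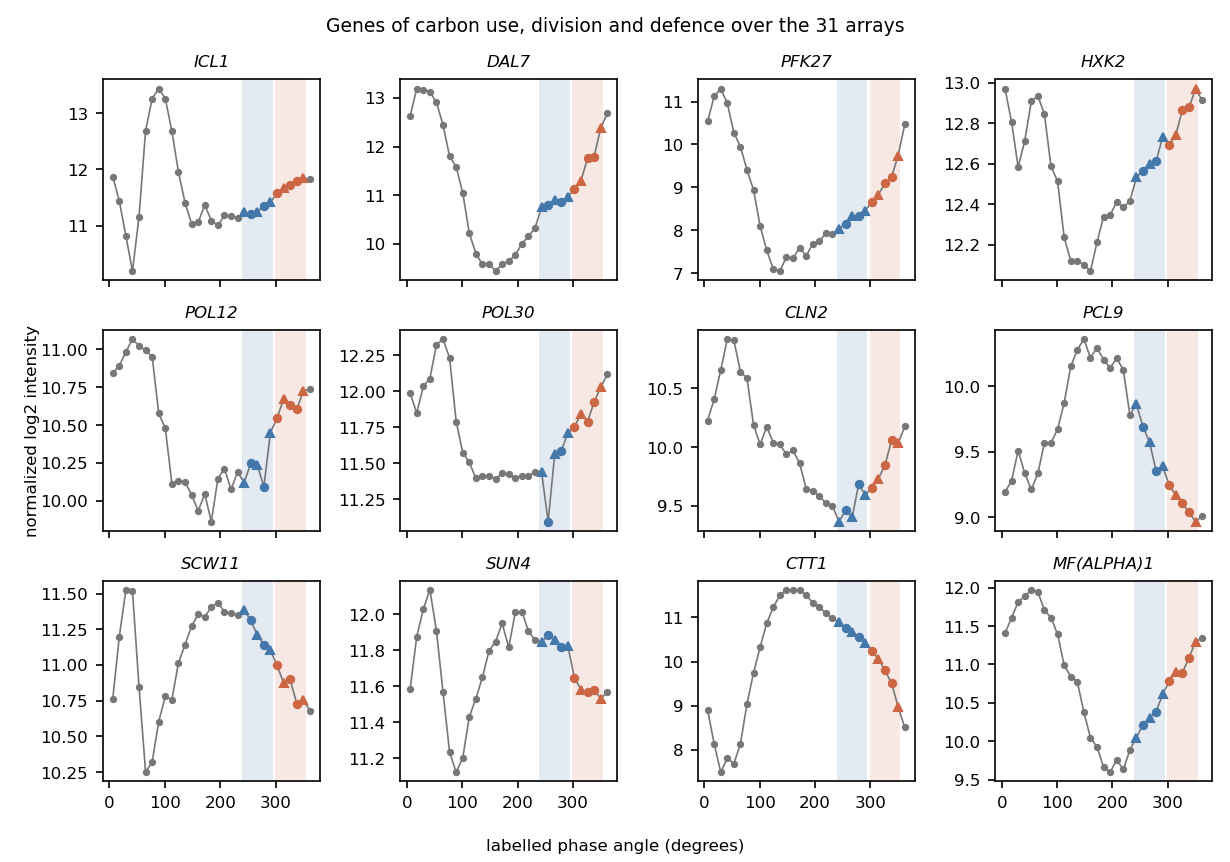
Normalized log2 intensity (vertical axes, not starting at 0) of 12 genes of carbon use, division and defence against labelled phase angle in degrees in the 31 arrays, with the windows shaded as elsewhere. ICL1 rises from 11.24 to 11.85 through the windows, and in the burst arrays it goes from 11.87 down to 10.19. SUN4 lies between 11.82 and 11.88 in the earlier and between 11.53 and 11.65 in the later window.

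The order within the stretch was read from each called probe set as the first later array from which all following arrays lay beyond every earlier array. Of the 823 that rose, 510 were beyond the earlier window from 302.64 degrees on, 23.2% of them from 314.51, 87 from 326.37, 22 from 338.24 and 8 at 350.11 degrees, and 5 never met the rule. Of the 890 that fell, 532 were beyond it from 302.64 degrees on, 20.3% of them from 314.51, 107 from 326.37, 40 from 338.24 and 22 at 350.11 degrees, and 8 never were. Over all 5422 probe sets, called or not, 522 (9.63%) had all later arrays above all earlier ones and 579 (10.7%) had all below. Called probe sets were picked for a difference between the windows, which favours separation, so their counts cannot be set against these shares. A steady drift through both windows gives the same order as a step at the border.

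Whether the pace changed was tested by setting the step between the windows against the one before it, from 183.96 to 231.43 degrees into the earlier window. Both steps share the 5 arrays of the earlier window. In limma 0 of 5422 probe sets (0%) passed for the difference of the steps, with 296 at an unadjusted p under 0.05, and 0 passed under each alternative run. Side by side, the median of the 40S factors was 0.43 in the preceding step and 0.64 between the windows, that of the 60S factors 0.47 and 0.67, that of the helicases 0.53 and 0.71, and that of the storage carbohydrates -0.15 and -0.37. For sulfur assimilation and methionine the medians were 0.28 and 0.16, and for permeases and nitrogen control 0.22 and 0.15. AAH1 had gained 0.89 in the preceding step against 1.18, DAL5 0.80 against 0.91 and HXT4 0.06 against 0.46. CLB6 had -0.09 before and 0.45 between the windows, and RRP6 0.00 and 0.75. None of these differences of pace passed.

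How far the later window stood from the burst was measured against the 4 burst arrays. These were sampled at the start of the series, before both windows, and the comparison shares the 5 later arrays with the step. The burst arrays held 1 array of the first array number set and 3 of the second, against 3 and 2 in the later window. In limma 3741 probe sets passed (69%), 1891 higher (34.9%) and 1850 lower (34.1%) in the burst. With the array number set as a term 3336 passed, 1672 higher and 1664 lower. On the deposited scale 478 were higher and 1703 lower, with a median of -0.29 over all probe sets, and with the hybridization spikes 884 and 2953. The median difference from the later window to the burst was 1.34 for the 40S factors, 1.25 for the 60S factors and 1.49 for the helicases, against 0.64, 0.67 and 0.71 between the windows. All 55, 56 and 19 of them were higher in the burst, and 54, 52 and 19 on the deposited scale. For cytosolic ribosomal proteins the median was 0.16, with 74 of 127 higher (4 on the deposited scale and 121 with each array centred on its median), and for storage carbohydrates -1.49, with 19 of 20 lower.

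Of the 12 genes of daughter-cell separation 11 fell between the windows. From the later window to the burst 2 were higher and 3 lower, beside 34.9% and 34.1% over all probe sets. Their median was 0.14, and it turned to -0.09 on the deposited scale and -0.10 with the spikes. SCW11 was 0.40 higher in the burst arrays than in the later window (adjusted p 0.0385 in limma) and SUN4 0.33 higher (adjusted p 0.0173), and both calls were lost on the deposited scale, at 0.19 and 0.21 (adjusted p 0.499 and 0.437). PCL9 was 0.22 higher (adjusted p 0.0322), but 0.30 lower with the spikes (a difference of -0.30, adjusted p 0.00947), so its direction depended on the scale. The single array at 362.01 degrees continued the course of the later window in the genes printed first, with 12.82 for AAH1 and 9.00 for SPG1. It has no replicate, and no test was made with it.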

How the data were processed

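Each of the 31 time points was hybridized to 1 Affymetrix Yeast 2.0 array. The authors deposited linear signal intensities per probe set, made in GCOS, software of the array's maker, per the submitters' processing notes. The version, scaling target and mask of that software were not given in the sources used here. Samples were grouped by labelled phase angle. The windows, members, gene lists and tests were chosen with earlier results of these data known. Of 10928 probe sets, 5498 had 1 symbol of S. cerevisiae in the array's annotation, and a gene table of assembly R64 updated 12 symbols. Their log2 intensities were quantile-normalized across the 31 arrays. A filter removed 76 whose median intensity did not exceed 17.04, the value under which 95% of probe sets from outside this species had their median, and 5422 probe sets of 5382 genes were kept. For 39 genes with more than 1 probe set, the brightest by median intensity is given.

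Windows were compared with limma 3.58.1 (lmFit, eBayes) in R 4.3.3 on the arrays of each comparison, and p-values were adjusted by Benjamini-Hochberg across the 5422 probe sets. Drift inside a window counts as spread in these tests, neighbouring arrays are taken as independent, and precision is limited by the number of arrays. The model was tested on simulated data. Named are the 12 largest rises and 8 largest falls that passed with windows that do not overlap, the 2 members of each of 42 lists with the largest difference among those that passed, the growth regulators that passed, the genes that passed the test of pace (0 did), and ACT1, TDH3 and PMA1. Alternatives covered the scale and normalization, an offset, the filter, the arrays fitted, the array number set, a variance trend, a slope on the phase angle and leaving out each array. No sequences or coordinates are given, since the labels name no build for the probes. Plots used matplotlib 3.10.9 and Python 3.11.15.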

Additional observations from a re-analysis of the deposited data

Results flagged for a closer look

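Over the named genes and 2 measures of the arrays in both windows, 216 sets of 5 arrays were examined, and 5 held 1 array whose gap to its nearest neighbour took more than 0.71 of the range, and chance alone marks about 1 in 20 such sets. All 5 lay in the earlier window. In log2 intensity, the lowest array stood apart for MUP1 (10.5, with the next at 10.64), ELO3 (11.79, next 11.88), PYK2 (10.52, next 10.71) and PRE1 (12.86, next 12.96). For CWP1 the highest array stood apart (11.03, next 10.84). For MUP1, ELO3 and CWP1 it was the first array of the window, at 243.30 degrees, and for PYK2 and PRE1 the last, at 290.77 degrees.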

How the results depend on the processing

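No paired analysis was possible, since each time point has 1 array and the arrays of the windows form no pairs. The count of 1713 probe sets between the windows (823 higher, 890 lower) was 354 (335 and 19) on the deposited scale, 1005 (346 lower) with the hybridization spikes, 527 (264 and 263) with all 31 arrays in 1 fit, 1 (1 and 0) and 0 (0 and 0) within the array number sets, which leave fewer arrays, and 2835 (1620 lower) as a slope on the phase angle, which does not count drift as spread. Leaving out 1 array gave 0 to 2050 (0 to 941 higher, 0 to 1109 lower). The burst count was 2181 (478 higher) on the deposited scale, with the spikes 884 were higher and 2953 lower, and within the first set it was 851 (409 and 442); leaving out 1 array gave 3275 to 3881 (1628 to 2030 higher, 1647 to 1851 lower). The test of pace gave 0 throughout. The cause of the shifts with scale was not tested. Signs turned for HMO1 on the deposited scale (0.00286), for ACT1 on the deposited scale (0.0495), within the first set (0.000547) and as a slope (0.00265), and for TDH3 with median centring (-0.0770), spikes (-0.0316), within the first set (-0.0155) and without the array at 314.51 degrees (-0.00941, the lowest of -0.00941 to 0.0661 with 1 array left out). Of 2544 values of named genes under alternatives, 1900 kept direction and call, 636 kept direction and lost the call and 8 turned.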
